A study of Mus musculus with 9 samples.

Results

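The germline variable segments of the mouse antibody loci were followed through 9 RNA libraries of sorted hippocampal pyramidal neurons. They were defined by their symbols, which begin with Ighv (heavy chain), Igkv (kappa light chain) or Iglv (lambda light chain), and a segment was kept on its measured value, a raw count of at least 1 summed over the 9 libraries. Of 348 such segments in the count tables, 169 met this rule, out of 51912 genes in all. They were 94 of 185 heavy chain segments, 72 of 160 kappa segments and 3 of 3 lambda segments. The other 179 had 0 counts in every library. Because the counts chose the members, detection itself is a description and is given without a test.

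Each antibody chain carries a variable domain that contacts antigen and a constant part. In a developing B lymphocyte, the gene of the variable domain is cut and joined from one variable segment (V), a diversity segment (D, heavy chain alone) and a joining segment (J), and a plasma cell then transcribes its one joined heavy chain gene and its one joined light chain gene at a very high rate. The variable segments found in RNA can therefore reflect which joined genes the antibody-making cells of a sample carried. Counts on germline segments do not show joining, and joined reads were not examined here. Mouse antibodies use kappa far more often than lambda light chains.

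The libraries came from male C57BL/6 mice with Cre recombinase driven by the Camk2a promoter, which is active in forebrain excitatory neurons. The mice received a serotype 5 adeno-associated virus (rAAV5) with a Cre-dependent mCherry at 2.88e+08, 2.88e+09 or 2.88e+10 vector genomes, and living red cells of the hippocampus were sorted 3 weeks later. Per the labels, the lowest dose served as the control, and the design was 3 groups of 3. No label of a single library, titled S1001 to S1009, gives its dose, so 0 of 9 libraries were assigned to a group, values are given per library and doses are not compared. The column headers of S1001, S1002 and S1003 are H1, H2 and H3, those of S1004 to S1006 are M1 to M3 and those of S1007 to S1009 are L1 to L3. The labels do not explain these letters. Total gene counts per library ranged from 12136830 to 19151596. Slc17a7, Camk2a, Neurod6 and Nrgn, genes of pyramidal neurons, had counts in every library.

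The leading segments are shown first, because a few of them held most of the counts. Each sequence below is the last exon of the germline gene in GENCODE M21 on mm10, read in the direction of transcription. It holds the variable domain without the parts that come from the diversity and joining segments. Capitals mark the stretch from the last in-frame cysteine codon to the end of the segment. That cysteine is the conserved residue just before the third complementarity-determining region, the antigen-contacting loop in which the segments are joined. Heavy chain and lambda exons are given by their last 300 of 305 bases. These are reference sequences, not sequences read from the libraries.
Ighv1-26 (chr12:114788372-114788671, minus strand): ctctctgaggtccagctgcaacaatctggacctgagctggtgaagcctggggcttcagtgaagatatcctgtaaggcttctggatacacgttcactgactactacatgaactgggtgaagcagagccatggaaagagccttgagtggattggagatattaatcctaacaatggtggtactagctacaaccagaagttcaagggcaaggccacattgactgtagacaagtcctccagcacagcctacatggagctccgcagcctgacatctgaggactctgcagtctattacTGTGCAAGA
Ighv1-9 (chr12:114583569-114583868, minus strand): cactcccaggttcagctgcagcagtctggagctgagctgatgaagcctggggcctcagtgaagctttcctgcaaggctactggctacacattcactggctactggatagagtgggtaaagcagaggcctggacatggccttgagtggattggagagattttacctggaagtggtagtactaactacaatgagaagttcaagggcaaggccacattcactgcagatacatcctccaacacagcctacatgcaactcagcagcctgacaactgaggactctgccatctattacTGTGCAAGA
Igkv6-25 (chr6:70215660-70215957, plus strand): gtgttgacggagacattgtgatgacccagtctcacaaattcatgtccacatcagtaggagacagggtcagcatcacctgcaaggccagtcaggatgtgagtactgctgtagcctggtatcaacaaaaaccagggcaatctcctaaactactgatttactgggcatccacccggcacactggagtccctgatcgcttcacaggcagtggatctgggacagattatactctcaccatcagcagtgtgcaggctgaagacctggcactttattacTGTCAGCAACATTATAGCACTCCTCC
Igkv5-39 (chr6:69900424-69900721, minus strand): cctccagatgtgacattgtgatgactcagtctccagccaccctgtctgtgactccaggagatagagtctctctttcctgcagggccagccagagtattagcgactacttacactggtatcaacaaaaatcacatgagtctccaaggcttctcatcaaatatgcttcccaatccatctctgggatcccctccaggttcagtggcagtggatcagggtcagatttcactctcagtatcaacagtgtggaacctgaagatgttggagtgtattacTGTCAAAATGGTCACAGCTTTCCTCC
Igkv13-85 (chr6:68930269-68930566, minus strand): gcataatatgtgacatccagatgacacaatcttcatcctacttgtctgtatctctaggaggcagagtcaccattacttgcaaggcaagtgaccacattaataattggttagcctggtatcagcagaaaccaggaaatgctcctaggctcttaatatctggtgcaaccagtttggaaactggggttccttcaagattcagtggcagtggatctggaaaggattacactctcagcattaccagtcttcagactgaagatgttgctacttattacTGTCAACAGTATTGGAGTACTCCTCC
Igkv13-84 (chr6:68939770-68940067, plus strand): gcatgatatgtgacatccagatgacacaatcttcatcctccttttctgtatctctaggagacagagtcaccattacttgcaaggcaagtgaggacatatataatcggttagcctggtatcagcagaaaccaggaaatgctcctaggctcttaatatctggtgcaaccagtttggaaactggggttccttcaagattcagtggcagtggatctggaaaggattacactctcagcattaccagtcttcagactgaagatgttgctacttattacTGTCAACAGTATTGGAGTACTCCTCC
Iglv1 (chr16:19085017-19085316, minus strand): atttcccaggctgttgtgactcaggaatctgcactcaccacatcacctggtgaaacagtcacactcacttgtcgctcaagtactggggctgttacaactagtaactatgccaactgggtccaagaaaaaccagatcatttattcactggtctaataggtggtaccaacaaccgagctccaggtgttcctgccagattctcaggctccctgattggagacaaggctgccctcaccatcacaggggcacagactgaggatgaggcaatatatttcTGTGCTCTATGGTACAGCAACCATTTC

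Igkv13-84 is shown beside Igkv13-85 because these neighbours matched at 97% of aligned positions and end in the same capitals. Ighv1-26 and Ighv1-9 matched at 83.3%, and Igkv6-25 and Igkv5-39, from different families, at 65.2%. In the heavy chain sequences the segment ends 9 bases after the start of the capitals, whereas the kappa segments contribute 26 bases and Iglv1 27 bases.

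Variable segment RNA was concentrated in S1001, S1002 and S1003. All members together had 18928, 17428 and 20623 counts in these libraries, and 22, 51, 43, 8, 23 and 7 counts in S1004 to S1009. The first 3 libraries thus held 99.7% of the 57133 counts. Scaled to the library total (CPM), the members summed to 1551, 1339 and 1572 CPM in S1001 to S1003, and to 1.16, 3.52, 3.13, 0.538, 1.4 and 0.431 CPM in S1004 to S1009. The exact 95% Poisson interval was 1319 to 1359 CPM for S1002, the lowest of the first 3, and 2.62 to 4.62 CPM for S1005, the highest of the other 6. Intervals and limits cover counting error only. In bulk RNA, fewer antibody-making cells and less antibody RNA per cell cannot be told apart.

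All 3 loci had this distribution over the libraries. Heavy chain segments had 7952, 7088, 8617, 10, 17, 26, 0, 8 and 5 counts in S1001 to S1009. Kappa segments had 10716, 10109, 11742, 12, 34, 17, 8, 15 and 2 counts. Lambda segments had 260, 231 and 264 counts in S1001 to S1003 and 0 counts in each of the other 6. A count of 0 allows up to 3 counts, which is 0.158 to 0.218 CPM for the lambda segments of S1004 to S1009. Lambda segments made up 2.37% (exact 95% interval 2.09 to 2.67), 2.23% (1.96 to 2.54) and 2.20% (1.94 to 2.48) of light chain variable counts in S1001, S1002 and S1003, so these intervals overlap.

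**Figure D1:**
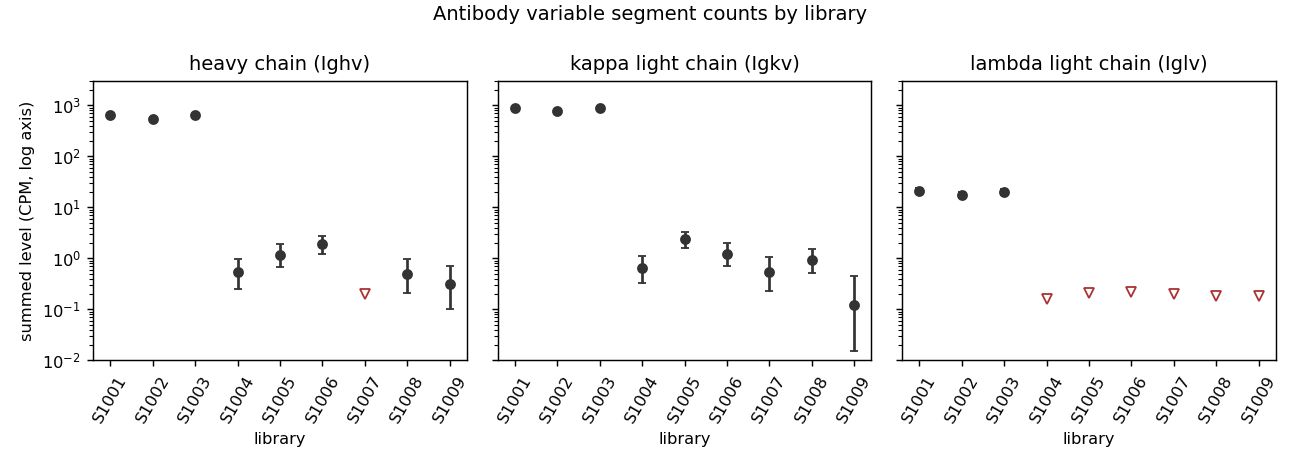
Summed level of heavy chain, kappa and lambda variable segments (CPM, log axis) in each of the 9 libraries. Points carry exact 95% Poisson intervals, and open triangles mark libraries at 0, drawn at the level of 3 counts. S1001 to S1003 lie at 544 to 657 CPM for the heavy chain and 776 to 895 CPM for kappa, above all other libraries.

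Summed markers of other cells were also highest in S1001 to S1003. The summed level of 9 B cell genes was 45.6, 41.8, 47.7, 8.21, 9.10, 6.69, 0.202, 0.609 and 0.123 CPM in S1001 to S1009, and 8, 9, 9, 5, 6, 7, 3, 2 and 1 of the 9 had a count. Cd79a, a signalling chain of the B cell receptor, had 166, 156, 177, 0, 0, 1, 1, 0 and 0 counts in S1001 to S1009. Cd22 and Cd79b gave most of the B cell sum in S1004 to S1006. Of the same list, Cr2, Fcmr and Pax5 had their highest counts outside S1001 to S1003. These were 9 in S1006 for Cr2, 5 in S1004 and S1005 for Fcmr and 9 in S1008 for Pax5. The other genes of the list had their highest count within S1001 to S1003. Pou2af1, a B cell coactivator of antibody genes, had 33, 38 and 44 counts in S1001 to S1003 and 0 in the others. The 11 plasma cell genes of the list summed to 1470, 1572, 1538, 394, 250, 404, 435, 327 and 389 CPM. Jchain, which joins antibody units into polymers, gave most of that sum in S1001 to S1003, and Xbp1 and Txndc5, genes of protein secretion, gave most of it elsewhere. Tnfrsf17, a survival receptor of plasma cells, was not highest in S1001 to S1003, at 38, 35, 30, 118, 47, 43, 0, 0 and 0 counts. Microglial genes, 6 of 6 with counts in every library, summed to 9202, 8361, 8649, 2943, 2222, 2262, 51.8, 75.5 and 17.4 CPM. Rag1, of the recombinase that cuts the segments, had 0 counts in every library. Rag2, its partner, had 4, 2, 0, 0, 0, 1, 0, 0 and 0 counts, and Dntt, which adds bases at the joins, had 3, 3, 6, 0, 7, 3, 6, 14 and 0. The part of these cell types in the variable segment counts was not tested.

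Within a locus, counts fell on few segments. The median member had 2 counts over the 9 libraries, against 34 for all 36369 genes with a count. A total of 43 members had at least 100 counts, namely 26 heavy chain, 15 kappa and 2 lambda segments, and 126 had fewer than 100. No member lay between Igkv8-21, at 27 counts, and Ighv8-8, at 100 counts. The 43 held 99.6% of the variable counts of S1001 to S1003, and each of them was counted in each of these 3 libraries, at 24 counts or more. At the edge of the rule, 58 members had exactly 1 count, such as Ighv1-17-1 in S1006, Ighv1-19 in S1003 and Ighv1-19-1 in S1005.

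All 43 were annotated as variable genes, not as pseudogenes. Among the 169 members, 54 were annotated as pseudogenes, germline segments with disabling changes, and together they had 85 counts. The highest pseudogene had 4 counts. The annotation gives 130 of the listed segments as pseudogenes and 216 as variable genes, and 115 of the variable genes were members. Second identifiers of Ighv1-13 and Ighv5-8, each at 0 counts, fall in neither class.

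The heavy chain was led by Ighv1-26. It had 1728, 1572 and 1852 counts in S1001 to S1003, 1 count each in S1004 and S1006 and 0 in the other 4 libraries. That was 21.7% of heavy chain variable counts in S1001 (exact 95% interval 20.8 to 22.7), 22.2% in S1002 (21.2 to 23.2) and 21.5% in S1003 (20.6 to 22.4). Ighv1-9 followed with 1263, 1100 and 1285 counts in S1001 to S1003 and 0 elsewhere, or 15.9%, 15.5% and 14.9% of the locus. Both segments kept their place in all 3 libraries, and their intervals did not overlap with each other in any of them.

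The next 6 heavy chain segments were closer together. Ighv1-64 had 589, 509 and 635 counts in S1001 to S1003, and Ighv1-74 had 505, 509 and 639. Ighv5-6 had 576, 458 and 563 counts, Ighv1-82 had 505, 415 and 579, and Ighv1-52 had 507, 381 and 501. Ighv9-3 had 381, 460 and 430. These 6 segments had shares from 4.79% to 7.42%, and their order differed between libraries. In S1001, Ighv1-74 and Ighv1-82 had the same count. Ighv1-39 followed at 4.06% to 4.28% and Ighv1-72 at 1.74% to 1.93%. The 10 leading heavy chain segments together held 82.1%, 82.3% and 81.5% of the locus in S1001, S1002 and S1003. The other 16 heavy chain segments with at least 100 counts had 100 to 411 counts over the 9 libraries and shares of 0.302% to 2.05%. Together these 16, among them Ighv1-69, Ighv1-61 and Ighv9-1, held 17.5%, 17.2% and 18.1%.

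The kappa locus was more uneven. Igkv6-25 had 3644, 3419 and 4142 counts in S1001 to S1003 and 0, 2, 0, 1, 1 and 1 counts in S1004 to S1009. Its share of kappa variable counts was 34.0% in S1001 (33.1 to 34.9), 33.8% in S1002 (32.9 to 34.8) and 35.3% in S1003 (34.4 to 36.1). Igkv5-39 had 2127, 1925 and 2196 counts and shares of 19.8%, 19.0% and 18.7%. Igkv13-85 had 1256, 1237 and 1374 counts and shares of 11.7%, 12.2% and 11.7%. The order of these 3 was the same in S1001, S1002 and S1003, and no intervals of different segments overlapped.

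Of the other kappa segments, Igkv17-127 had 640, 509 and 553 counts in S1001 to S1003. Igkv17-121 had 519, 497 and 555, Igkv19-93 had 469, 477 and 579, Igkv3-4 had 479, 464 and 474, and Igkv8-30 had 502, 409 and 501. These 5 held 4.04% to 5.97% each and did not keep one order. Igkv13-84 (2.35% to 2.61%) and Igkv14-111 (2.02% to 2.36%) completed the leading 10, which held 94.3%, 93.1% and 93.2% of kappa variable counts. The other 5 kappa segments with at least 100 counts, Igkv6-17, Igkv1-135, Igkv9-120, Igkv5-43 and Igkv11-125, had 177 to 494 counts over the 9 libraries. Their shares were 0.485% to 1.70% each, and together they held 5.34%, 6.42% and 6.30% of kappa counts.

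Lambda counts fell mainly on Iglv1, at 219, 201 and 227 counts in S1001 to S1003. That was 84.2% (79.2 to 88.4), 87.0% (82.0 to 91.1) and 86.0% (81.2 to 89.9) of the locus. Iglv3 had 37, 28 and 36 counts, and Iglv2 had 4, 2 and 1. Iglv1 and Iglv2 matched at 97% of aligned positions, so the 7 counts of Iglv2 are uncertain.

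**Figure D2:**
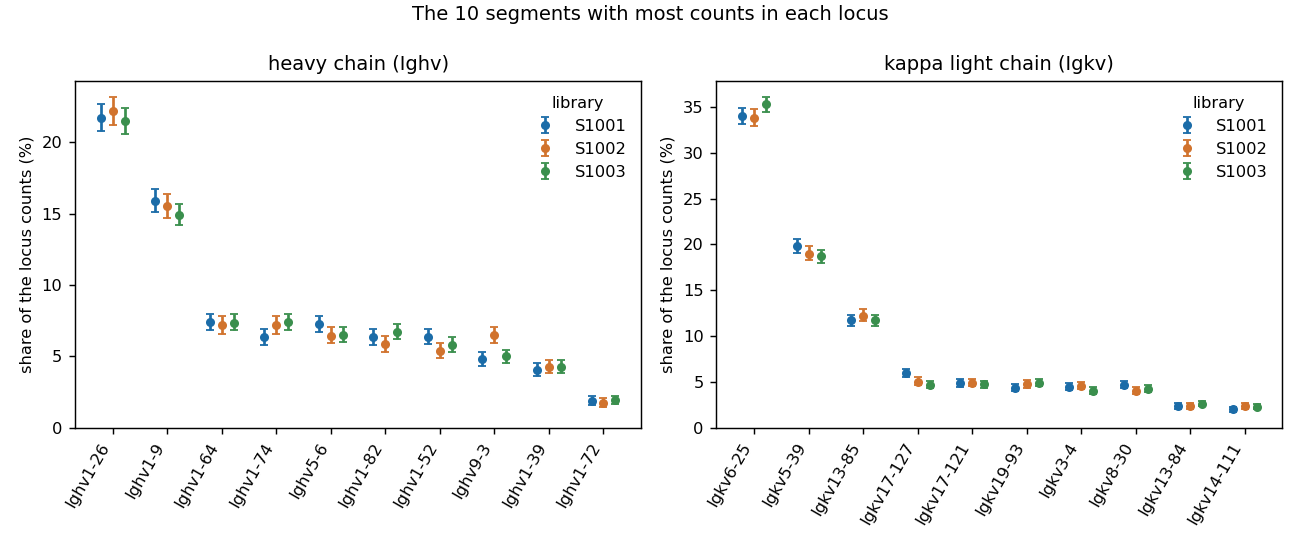
Share of heavy chain or kappa variable counts (%) held by the 10 segments with most counts in each locus, in S1001, S1002 and S1003. Bars are exact 95% binomial intervals. Ighv1-26 holds 21.5% to 22.2% and Igkv6-25 holds 33.8% to 35.3%.

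The effective number of segments, the inverse Simpson index, is the number of equally abundant segments that would give the same concentration. It was 9.82, 9.74 and 10.1 for the heavy chain in S1001, S1002 and S1003, 5.48, 5.60 and 5.39 for kappa and 1.37, 1.30 and 1.32 for lambda. The 4 most abundant segments reached 50% of heavy chain counts in each of the 3 libraries, and 2 segments did so for kappa. To reach 90% took 15, 15 and 16 heavy chain segments and 9, 9 and 9 kappa segments. Segments with at least 1 count numbered 44, 41 and 46 for the heavy chain and 37, 35 and 30 for kappa.

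S1001, S1002 and S1003 divided their counts among the segments in nearly the same way. The share of the locus that 2 libraries had in common is the sum over segments of the smaller share. It was 94.9% to 95.9% for the heavy chain and 96.4% to 97.4% for kappa. Over all other genes the same measure was similar. It was 95.3% for S1001 and S1002, 97% for S1001 and S1003 and 96.8% for S1002 and S1003. Pearson's r of shares between 2 libraries was 0.9962 to 0.9977 over 94 heavy chain segments and 0.9984 to 0.9992 over 72 kappa segments, a measure weighted to the leading segments. Spearman's rho over the same segments was 0.731 to 0.769 and 0.591 to 0.773, and over segments with at least 10 counts in the pair it was 0.957 to 0.967 and 0.958 to 0.985. Of the 10 most abundant heavy chain segments of 2 libraries, 9, 9 and 10 were shared, and for kappa all 10 were shared in each pair.

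Low-count segments were shared less. Of heavy chain members, 29 were counted in all 3 of these libraries, 5 in 2, 34 in 1 and 26 in none. The 29 held 99.7% of the counts, and those counted in 1 library had at most 3 counts each. For kappa, 21 members were counted in all 3 libraries and held 99.8% of the counts, while 6 were counted in 2 libraries, 27 in 1, with at most 5 counts each, and 18 in none. Of the segments counted in a library, 65.2% to 75.6% (heavy chain) and 59.5% to 80.0% (kappa) were also counted in a second one.

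The small differences that were left exceeded counting noise in 5 of 9 comparisons of 2 libraries in 1 locus. A chi-square test of homogeneity, over segments with at least 10 counts in the pair, gave 2.75, 2.23 and 2.02 per degree of freedom for the heavy chain in the pairs S1001 and S1002, S1001 and S1003, and S1002 and S1003. After Benjamini-Hochberg adjustment over the 9 comparisons, p was 2.42e-05, 7.18e-04 and 2.01e-03. For kappa the ratio was 2.58, 3.06 and 1.11 in the same pairs, with adjusted values of p of 8.27e-04, 1.53e-04 and 0.491. For lambda it was 0.358 to 0.963, and the lowest adjusted p was 0.491. A value near 1 is what repeated counting of one pool would give. These tests compare the reads of libraries, not conditions.

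The same ratio over all other genes was 2.68 to 5.14 in the 3 pairs of S1001, S1002 and S1003. In the other 33 pairs of libraries it was 24.4 to 184. The 3 libraries were thus nearer to each other than other pairs over the rest of the genes as well. Whether their nearness is particular to the antibody segments was not tested. The sources used here call the replicates biological and do not say which animals gave which library. Whether these 3 libraries came from separate animals or from 1 pool prepared more than once was not tested, and their values are given side by side without an average.

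**Figure D3:**
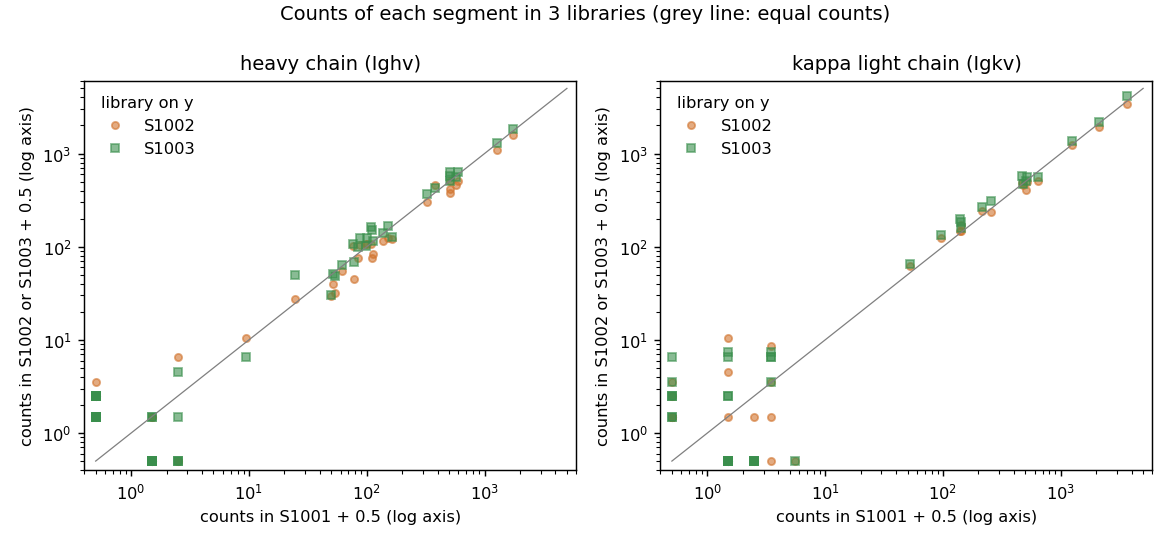
Counts of each heavy chain or kappa segment in S1001 (x axis) against S1002 or S1003 (y axis), each with 0.5 added so that 0 can be drawn on the log axes. Segments with at least 100 counts over the libraries lie along the line of equal counts, and a separate cloud below about 10 counts scatters.

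Ighv9-3 showed the largest range of shares among heavy chain and kappa segments. It held 4.79% (exact 95% interval 4.33 to 5.28) in S1001, 6.49% (5.93 to 7.09) in S1002 and 4.99% (4.54 to 5.47) in S1003. The interval of S1002 lay above the other 2. Igkv17-127 held 5.97% (5.53 to 6.44) in S1001, above 5.04% (4.62 to 5.48) in S1002 and 4.71% (4.33 to 5.11) in S1003. Over the 3 loci, the widest ranges were those of Iglv1, at 2.78 percentage points, Iglv3, at 2.11, and Ighv9-3, at 1.70. The lambda intervals overlapped.

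Segments are grouped into families of similar sequence, given by the first number of the symbol. The large Ighv1 family, 93 of the 185 listed heavy chain segments (50.3%), held 81.4%, 80.2% and 81.1% of heavy chain counts in S1001, S1002 and S1003. Its counts were spread, with Ighv1-26 at 26.9% of the family. The Ighv5 family held 7.10% to 8.24%, and 89.1% of that was Ighv5-6. The Ighv9 family held 6.17% to 7.99%, the Ighv3 family 2.58% to 2.69% and the Ighv10 family 1.12% to 1.48%. The Ighv2 family, with 11 listed segments, had 7 counts over the 9 libraries, and the Ighv14 family, with 4, had 4 counts.

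Kappa families were led by single segments. The Igkv6 family held 35.4%, 35.5% and 36.8% of kappa counts in S1001 to S1003, and Igkv6-25 was 95.7% of it. Igkv5-39 was 94.6% of the Igkv5 family, which held 19.8% to 20.7%. Igkv13-85 was 82.9% of the Igkv13 family, and Igkv17-127 was 52.0% of the Igkv17 family. The Igkv4 family is the largest listed, at 33 segments (20.6%), and had 39 counts over the 9 libraries.

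Segments with at least 100 counts were found in each part of both large loci, with a gap in the kappa locus. The heavy chain segments span chr12:113572927-116010093 and the kappa segments chr6:67555497-70704177, and the 3 lambda segments lie within chr16:19085017-19260859. The listed heavy chain segments were divided into 3 parts by distance to the joining segments. The nearest 61 (143 to 870 kb) held 15.9%, 16.4% and 15.6% of counts in S1001 to S1003, the middle 62 (885 to 1503 kb) held 47.5%, 48.9% and 47.1%, and the farthest 62 (1508 to 2580 kb) held 36.6%, 34.8% and 37.3%. The middle part contains Ighv1-26 and Ighv1-9. For kappa, the nearest 53 segments (18.7 to 1041 kb) held 65.5%, 64.7% and 65.3%. The middle 53 (1074 to 1967 kb) held 14.1%, 14.7% and 14.4%, and the farthest 54 (1986 to 3167 kb) held 20.4%, 20.6% and 20.3%. Segments with at least 100 counts numbered 5, 9 and 12 in the heavy chain parts and 6, 2 and 7 in the kappa parts. The 2 in the middle kappa part were the neighbours Igkv13-84 and Igkv13-85. No such kappa segment lay between Igkv5-43, at 898.9 kb, and Igkv13-84, at 1782.7 kb. Kappa segments lie in both orientations, and the 75 on the plus strand held 58.3% to 58.9% of the counts, while the 85 on the minus strand held 41.1% to 41.7%.

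**Figure D4:**
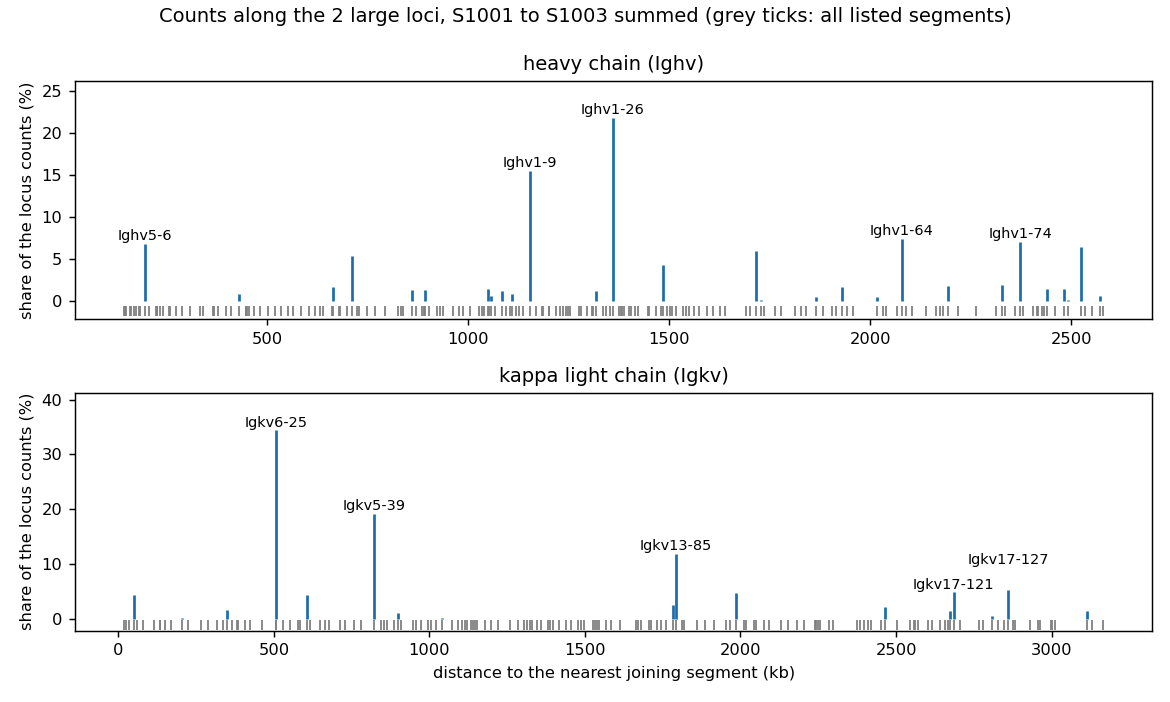
Share of heavy chain or kappa variable counts (%) over S1001 to S1003 summed, by distance to the nearest joining segment (kb). Grey ticks are all listed segments, vertical lines are segments with counts, and the 5 highest are named. Counts stand at isolated segments, with Igkv6-25 at 506.9 kb and Ighv1-26 at 1358.8 kb. No kappa segment with at least 100 counts lies between 898.9 and 1782.7 kb.

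Segments and their closest relatives divided their counts unevenly in most of the pairs given here, and nearly evenly in 1 of them. Ighv1-26 matched Ighv1-18 at 97.4% of aligned positions in the last exon, and Ighv1-18 had 0 counts in every library. Ighv1-52 matched Ighv1-61 at 98.7%, with 1389 and 393 counts over the 9 libraries. Ighv1-72 matched Ighv1-62-3 at 99.0%, with 441 and 3 counts. Igkv6-25 matched Igkv6-17 at 95.6%, with 11210 and 494 counts, and Igkv13-85 matched Igkv13-84 with 3868 and 800 counts. Igkv17-127 and Igkv17-121 matched at 98.0% and had 1702 and 1571 counts. Igkv19-93 had no relative above 79.1%.

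The share of windows of 50 bases in a segment's transcript that occur in no other listed variable segment was 7.49% to 100% over the 43 members with at least 100 counts, with a median of 74.7%. The median was 85.4% over the 179 segments with 0 counts. It was lowest in Ighv1-72 (7.49%) and Ighv1-62-2 (8.21%), 51.0% in Ighv1-26, 54.4% in Igkv6-25 and 32.8% in Ighv1-52. The sources used here do not say how reads that match several segments were counted, so values of segments with few windows of their own are uncertain.

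Variable counts were set against the constant region counts of the same chain. In S1001, S1002 and S1003, variable segments made up 15.1% (14.8 to 15.4), 12.6% (12.3 to 12.9) and 14.6% (14.3 to 14.8) of variable and constant heavy chain counts. For kappa the share was 29.2% (28.7 to 29.6), 26.3% (25.8 to 26.7) and 29.2% (28.8 to 29.7), and for lambda 41.6%, 39.6% and 39.3%. The share was lower in S1002 than in S1001 and S1003 for the heavy chain and kappa, with intervals that did not overlap. These are counts and not levels per length, so the chains are not compared with each other.

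In S1004 to S1007 the heavy chain share was lower, beside constant counts that were mostly Ighm. Ighm, the constant gene of IgM, had 8413, 9783, 9597, 1708, 1147, 1051, 202, 40 and 75 counts in S1001 to S1009. Variable segments made up 0.565% (exact 95% interval 0.271 to 1.04) of heavy chain counts in S1004, 1.38% (0.806 to 2.20) in S1005, 2.38% (1.56 to 3.47) in S1006 and 0% (0 to 1.65) in S1007. These 4 intervals lay below those of S1001, S1002 and S1003. S1008 and S1009, with 8 of 83 and 5 of 90 counts, had wide intervals, of 4.25 to 18.1% and 1.83 to 12.5%.

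Set against other constant genes, variable counts were not lower in most of these libraries, S1007 being at 0 for the heavy chain. Ighg2c, an IgG constant gene and the leading one of S1001 to S1003, had 17970, 19743, 20519, 11, 13, 1, 9, 11 and 5 counts in S1001 to S1009. Heavy chain variable counts per Ighg2c count were 0.443, 0.359 and 0.420 in S1001 to S1003, and 0.909, 1.31, 26.0, 0, 0.727 and 1.00 in S1004 to S1009, on few counts. Igkc, the kappa constant gene, had 26031, 28387, 28436, 10, 4, 0, 10, 14 and 9 counts. Variable segments made up 54.5% (exact 95% interval 32.2 to 75.6) of kappa counts in S1004, 89.5% (75.2 to 97.1) in S1005 and 100% (80.5 to 100) in S1006. The share was 44.4% (21.5 to 69.2) in S1007, 51.7% (32.5 to 70.6) in S1008 and 18.2% (2.28 to 51.8) in S1009. The intervals of S1004, S1005, S1006 and S1008 lay above those of S1001 to S1003. For the heavy chain, those of S1004, S1005 and S1006 lay below, and that of S1008 overlapped. The kappa shares of S1004, S1005, S1006 and S1008 rest on 12, 34, 17 and 15 variable counts. Igkv8-21 alone gave 7 of the 12 in S1004, and Igkv6-29 alone gave 11 of the 15 in S1008.

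**Figure D5:**
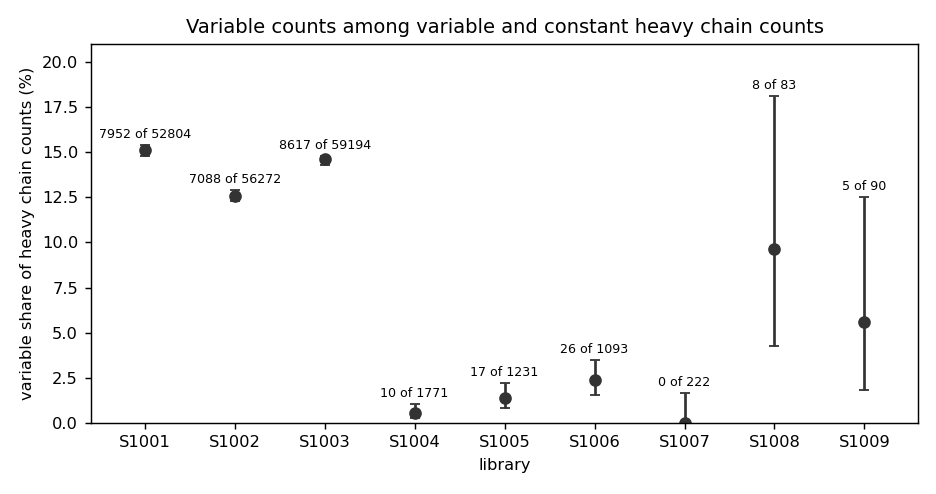
Share of variable segments among variable and constant heavy chain counts (%) in each library, with exact 95% binomial intervals and the counts behind each value. S1001 to S1003 lie at 12.6% to 15.1%, and S1004 to S1007 lie at 0% to 2.38%.

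S1004 to S1009 together had 154 variable counts, part of them on segments at 0 in S1001 to S1003. Of the 169 members, 94 were counted in S1001 to S1003 alone, 31 in both sets of libraries and 44 in S1004 to S1009 alone. These 44 had at most 5 counts each. The 58 members with exactly 1 count cannot be counted in both sets. The same split over all genes was not computed, so whether it is particular to these segments was not tested. Segments with at least 10 counts over S1004 to S1009 numbered 2. Igkv8-21 had 0, 2, 6, 7, 3, 3, 6, 0 and 0 counts in S1001 to S1009, and Igkv6-29 had 11 counts in S1008 and 3 in S1002. At 0 to 34 counts per locus and library, shares in these 6 libraries are not given.

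Variable segments of the T cell receptor, the related antigen receptor of T lymphocytes, were counted in the same tables for comparison. The 348 listed antibody segments, 169 of them with a count, had 57133 counts over the 9 libraries. The 170 listed T cell receptor segments had 201 counts. By library, S1001 to S1009, the T cell receptor segments had 39, 41, 35, 21, 22, 16, 7, 2 and 18 counts, and 68 of them had a count. The highest of them had 19 counts. The 6 genes of the T cell receptor constant regions and CD3 chains summed to 17.0, 18.3, 17.9, 1.58, 1.24, 1.24, 0.942, 3.90 and 1.97 CPM. Among them, Cd3e, a signalling chain, had 26, 24 and 24 counts in S1001 to S1003 and 0 in the other 6 libraries. Trac, the alpha chain constant gene, had 45, 65, 51, 20, 13, 8, 13, 53 and 32 counts.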

How the data were processed

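RNA of sorted mCherry-positive hippocampal cells was measured in 9 libraries. Each gene has a raw count of reads and an FPKM value, which divides by gene length and library total, per the file headers of the deposited tables. The submitters' processing notes name Trimmomatic 0.30, HISAT2 2.0.1, HTSeq 0.6.1 and build mm10, while strand setting and handling of multiply matched reads are not stated there or in the labels. Symbols, coordinates and transcript sequences came from GENCODE M21 on the same build. Of 51912 gene identifiers, 51633 had a symbol. The members and gene lists were chosen with earlier results of these data known.

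CPM values used TMM normalization (edgeR 4.0.16, R 4.3.3), with size factors of DESeq2 1.42.0 as an alternative. Segment shares were counts over the counts of the locus, with exact Clopper-Pearson 95% intervals, in libraries with at least 100 counts in the locus. Libraries were compared in pairs by chi-square over segments with at least 10 counts, the rest pooled. Named segments were the 10 with most counts of each locus, all lambda segments, the 3 with the widest range of shares, those with at least 10 counts over S1004 to S1009 and 3 at the edge of the rule. Other segments named as relatives, at the edge of a gap in counts or as family leaders were chosen after their values were seen. Identities came from global alignment with Biopython 1.88. The functions were tested on simulated data. Promoter motifs were not analysed here. The tables hold 2 identifiers each for Ighv5-8 and Ighv1-13, counted separately.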

Additional observations from a re-analysis of the deposited data

How the results depend on the processing

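Of 58 recalculated main values, 47 kept their size or their side of the threshold. No paired analysis was possible because no library has a group. With DESeq2 size factors, the highest library summed to 1599 CPM in place of 1572 CPM. With the deposited FPKM, Igkv6-25 held a median of 32.5% of kappa in place of 34.0%. Requiring at least 3 counts in a library left a median of 28 heavy chain and 20 kappa segments, and at least 10 counts left 26 and 15, in place of 44 and 35. With the exponential of the Shannon entropy, the effective number was 14.8, 8.36 and 1.53 for heavy chain, kappa and lambda, in place of 9.82, 5.48 and 1.32. Against the most abundant constant gene alone, median variable counts per constant count were 0.420 for the heavy chain and 0.985 for lambda, in place of 0.170 and 0.654. Leaving out S1001, S1002 or S1003 in turn gave pooled shares of 21.6% to 21.9% for Ighv1-26, 33.9% to 34.7% for Igkv6-25 and 85.1% to 86.5% for Iglv1. The calls of the 9 chi-square comparisons were the same with a minimum of 30 counts and without the leading segment. Variable counts of 7 to 51 per library, not total depth, limit what can be said of S1004 to S1009.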

Other observations

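Germline joining segments of the heavy chain had another order over the libraries than the variable segments. Ighj1 to Ighj4 together had 15, 12, 14, 33, 46, 4, 0, 1 and 0 counts in S1001 to S1009, so that S1004 and S1005, with 10 and 17 variable heavy chain counts, had more joining segment counts than S1001 to S1003. Most of these were on Ighj1, at 22 counts in S1004 and 26 in S1005. The 5 kappa joining segments had 2, 3 and 4 counts in S1001 to S1003 and 0 in each of the other 6 libraries. Heavy chain diversity segments, 20 in the tables, had 3, 1 and 6 counts in S1001 to S1003 and 1 count in the other libraries together.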
